A study of Mus musculus with 8 samples.

Results

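The mitochondrial ribosomal protein genes, the genes whose symbol is Mrpl or Mrps followed by a number and at most one letter, made up 76 of the 25574 genes in the expression table of mouse NEBD-stage oocytes. Mrpl genes, named for the large subunit of the mitoribosome, numbered 47, and Mrps genes, named for the small subunit, numbered 29. All 76 had a mean level above 0.1 FPKM (fragments per kilobase of transcript, scaled to the size of the library) in at least 1 dataset and so entered the test. They lay on 17 autosomes and none on chromosome X.

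The mitoribosome is the ribosome inside mitochondria, and it makes the few proteins that mitochondrial DNA encodes, which are subunits of the respiratory chain and of ATP synthase. Its rRNAs come from mitochondrial DNA, but all of its proteins are encoded in the nucleus, made on cytosolic ribosomes and imported. In a sucrose gradient, mRNAs bound to many cytosolic ribosomes move to the heavy, polysomal fractions. Heavy stored ribonucleoprotein particles could sediment there as well, and the P level alone does not tell these apart from polysomes. The oocyte holds a large maternal store of mitochondria and mRNAs, and transcription is silent at this stage.

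A pair of RNA pools were compared, the non-polysomal (NP) and the polysomal (P) dataset, with 4 libraries each, called NP1 to NP4 and P1 to P4 after the replicate numbers of the labels. Both pools came from CD1 mice aged 8 weeks that received 5 IU of pregnant mare serum gonadotropin, from which fully grown oocytes were taken after 46 h, stripped of cumulus cells, cultured for 180 min and held in 0.1 mg/mL cycloheximide for 10 min. Each profile used 200 pooled oocytes that had undergone nuclear envelope breakdown (NEBD), spread over a 10% to 50% sucrose gradient in 10 fractions. Fractions 2 to 5, with the ribosomal subunits, the monosomes and the stored mRNPs, gave NP, fractions 6 to 10 gave P, and the lightest fraction was left out. The RNA was depleted of rRNA and amplified over the whole transcriptome before sequencing. The study describes the 4 profiles as independent biological replicates. No library of unfractionated RNA was among the samples. FPKM gives the share of a transcript within its own pool, so a change of its amount per oocyte and a change of the rest of the pool cannot be told apart.

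The number each library was scaled to ran from 1299377 (NP2) to 7594637 (NP4), as read from the steps between FPKM values. Counting units recovered from these steps, summed over genes, were above this number in every library (2127901 in NP2 and 12424681 in NP4). The reason was not tested, so the number may not be the total of mapped units. All 9 oocyte markers, Gdf9, Bmp15 and Zp3 among them, were above 1 FPKM in every library, with summed levels of 5738 to 30548 FPKM. Of 11 granulosa and cumulus cell markers, 1 or 2 were above 1 FPKM in each library, with summed levels of 2.78 to 78.2 FPKM, nearly all of it Cyp19a1 in 6 of the 8 libraries, while Foxl2, Inhba, Has2 and Amhr2 were listed at 0 throughout. The median level of all genes tested was higher in every NP library, at 3.41 to 5.55 FPKM, than in every P library, at 1.05 to 3.02 FPKM, so each value of the family is given beside that of all genes.

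Printed below are the 200 bases before the RefSeq start of 3 members that hold a promoter motif match. They are from GRCm38.p6, 5′ to 3′ on the strand of the gene, with motif matches in capitals. Most members with such a window held neither motif. Mrpl45 (chr11:97315516-97315715, plus strand) and Mrpl32 (chr13:14613038-14613237, minus strand) had P levels wholly below their NP levels. Mrpl52 (chr14:54426709-54426908, plus strand) had one of the most positive fold changes of the family. All 3 windows end at the base before the gene starts in the expression table.
Mrpl45: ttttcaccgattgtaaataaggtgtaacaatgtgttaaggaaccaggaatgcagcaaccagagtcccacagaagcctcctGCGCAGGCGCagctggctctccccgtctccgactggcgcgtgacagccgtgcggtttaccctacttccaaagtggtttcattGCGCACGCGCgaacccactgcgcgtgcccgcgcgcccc
Mrpl32: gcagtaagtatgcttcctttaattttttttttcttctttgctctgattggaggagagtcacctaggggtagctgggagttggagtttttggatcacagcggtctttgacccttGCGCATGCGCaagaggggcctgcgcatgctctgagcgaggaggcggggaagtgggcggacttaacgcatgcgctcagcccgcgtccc
Mrpl52: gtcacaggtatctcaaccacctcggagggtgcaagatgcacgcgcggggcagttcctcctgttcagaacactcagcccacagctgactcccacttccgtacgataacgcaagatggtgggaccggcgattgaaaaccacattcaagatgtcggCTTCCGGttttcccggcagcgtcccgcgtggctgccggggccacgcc
Capitals mark the motif of nuclear respiratory factor 1 (NRF1), a regulator of nuclear genes for mitochondrial proteins, searched as GCGC, A, any base and GCGC in a row, and CCGGAAG, the form bound by ETS factors such as GABP. Both strands were searched, and neither motif lies inside the other. Mrpl45 held 2 matches to the NRF1 motif, Mrpl32 held 1, and Mrpl52 held 1 match to the ETS motif on the opposite strand.

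Such matches were somewhat more frequent in the family than in the table. Of the 67 members with a window of this kind, 9 (13.4%) held the NRF1 motif, against 8.41% of 9657 genes tested and 5.47% of all 16036 genes of the table with a window. The ETS motif was in 15 (22.4%), against 13.5% and 9.27%. The members with the NRF1 motif were Mrpl9, Mrpl12, Mrpl17, Mrpl30, Mrpl32, Mrpl39, Mrpl44, Mrpl45 and Mrps21. Their median log2 fold change, P over NP, was −1.89, against −1.18 for the members without it, whereas over all genes tested it was −0.36 with and −0.42 without the motif. For the ETS motif the split ran the other way, at −0.78 with and −1.44 without it. Mrpl12, Mrpl32, Mrpl39 and Mrpl45 were 4 of the 10 members whose NP and P levels did not overlap (40.0%), and the motif was in 5 of the other 57 (8.77%). This split was looked at after the levels were known and is a description only. The share with the motif among all genes without overlap was not computed, nor was this split for the ETS motif.

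As a family, mitoribosomal protein mRNAs had lower levels in the P than in the NP dataset, and by more than the typical gene. The median level over the 76 members was 20.7, 24.7, 12.6 and 12.05 FPKM in NP1 to NP4 and 8.84, 8.45, 3.11 and 5.09 FPKM in P1 to P4. All 4 NP medians thus lay above all 4 P medians, as they did for the table as a whole. The median log2 fold change of the members, taken on log2(FPKM + 1), was −1.18 (quartiles −1.83 and −0.43), while that of all 14292 genes tested was −0.39.

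No single gene of the family passed the limma test on FPKM with adjustment across the table. The study used DESeq2, and its list of transcripts that differed between the datasets includes Mrpl14 and Mrpl45. Its text gives that list a stricter p threshold than the 0.1 used here. From a gene set analysis by P over NP ratio, it also describes mitochondrial ribosomal protein mRNAs as more abundant outside polysomes. Neither analysis was repeated here. With limma and Benjamini-Hochberg adjustment over all genes tested, 0 of the 76 members had an adjusted p below 0.1, as against 3 of 14292 genes (0.0210%), and the lowest adjusted p of a member was 0.376, for Mrpl14, Mrpl23 and Mrpl45. At an unadjusted p below 0.05, 15 members (19.7%) were lower in P, against 9.47% of all genes, and 0 were higher in P, against 0.476%. In either direction, 10 members had such a p with quantile normalization and 5 with each library centred on its own median. The share of all genes under these scalings was not computed. On whole counting units recovered from the FPKM steps, voom of limma called 1 member, Mrpl23, at an adjusted p of 0.0803, among 131 of 12445 genes (1.05%), of which 130 were lower in P (1.04%).

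The direction was shared by most of the family. The log2 fold change was below 0 in 65 of 76 members (71.4% of all genes), and below −1 in 42 (25.8% of all genes). With quantile normalization 54 members lay below 0, and the median of all genes was −0.02. With each library centred on its own median 43 lay below 0, and the median of all genes was 0.57. Without such rescaling, the log2 fold change lay below the median of all genes in 59 members (77.6%), where 50.0% of all genes do by construction. The ratio of mean FPKM favoured NP by over 2-fold in 41 members (53.9%, against 40.6% of all genes) and P by over 2-fold in 4 (Mrps23, Mrpl52, Mrpl19 and Mrpl3; 5.26%, against 16.9%). Members share their libraries, so these counts are not independent observations.

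The distance from the other genes depended on scaling in size but not in sign. With quantile normalization the median was −0.63 for the members and −0.02 for all genes, and with each library centred on its own median it was −0.23 and 0.57. The members thus stayed 0.62 and 0.79 below the median of all genes on the log2 scale. Seen library by library, the median member lay above the median gene by 2.08, 2.19, 1.05 and 1.56 on the log2 scale in NP1 to NP4 and by 1.29, 1.77, 0.67 and 1.57 in P1 to P4. These 2 sets of values overlap, with NP3 the lowest of NP and below 3 of the 4 P libraries.

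**Figure D1:**
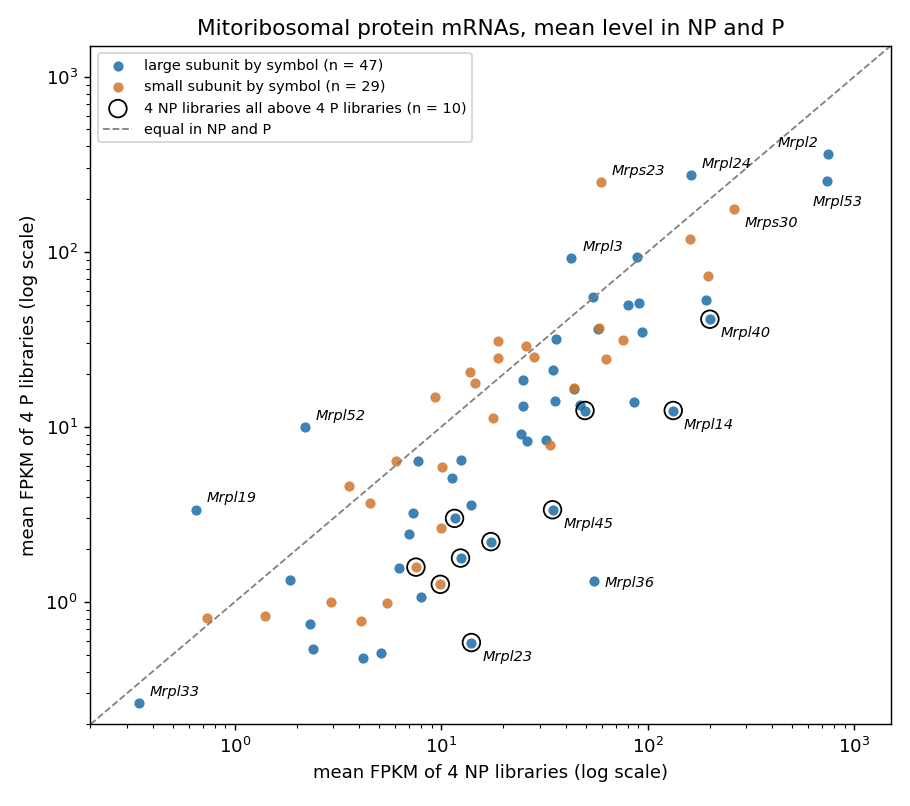
Mean FPKM of the 76 genes in the 4 NP libraries (x axis, log scale) against the 4 P libraries (y axis, log scale), with large subunit genes in blue, small subunit genes in orange and black rings around genes whose NP libraries all lie above their P libraries. Of the 76 points, 60 lie below the dashed line of equal levels, and the 10 ringed genes have NP means from 7.54 (Mrps36) to 200.1 FPKM (Mrpl40).

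Above 1 FPKM the family also had lower medians than all genes of like level, and so it did in each class of transcript length. Among genes with a mean of 1 to 10 FPKM over all libraries, the median log2 fold change was −1.27 for 30 members and −0.65 for all 4983 genes. From 10 to 100 FPKM it was −1.25 for 35 members and −0.54 for all 4584 genes, and above 100 FPKM it was −1.11 for 9 members and −0.30 for all 1055 genes. The 2 members below 1 FPKM had a median of −0.15, against −0.21 for all 3670 such genes. Mitoribosomal mRNAs are short, with a median transcript length of 1302 bases against 3089 for all genes with a transcript. Among transcripts of at most 1000 bases the median was −1.55 for 24 members and −0.46 for all 652 genes, and among those above 2500 bases it was −0.88 for 19 members and −0.36 for all 7380 genes. In the classes between, it was −0.96 for 22 members against −0.58 (1000 to 1500 bases) and −1.35 for 11 members against −0.48 (1500 to 2500 bases). Across genes, length and fold change had a Spearman rho of 0.20 over the 76 members and 0.10 over 11752 genes, and genes of one library are not independent replicates.

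Cytoplasmic polyadenylation elements, which control the translation of many stored oocyte mRNAs, were in a share of the family close to that of all genes. The forms TTTTAT or TTTTAAT were in the last 100 bases of the annotated transcript in 12 of 76 members (15.8%) and in 18.6% of 11752 genes tested. The median log2 fold change was −1.03 for members with and −1.30 for members without an element.

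The large subunit had the lower fold changes of the 2 subunits. The median log2 fold change was −1.42 over the 47 Mrpl genes and −0.69 over the 29 Mrps genes, and 39 (83.0%) and 20 (69.0%) lay below the median of all genes. An unadjusted p below 0.05 with a lower level in P was found for 12 Mrpl genes (25.5%) and 3 Mrps genes (10.3%). With libraries centred on their median the values were −0.46 and 0.27, so the sign of the small subunit median depended on scaling. In single libraries, the large minus small difference of median log2 levels had an SD of 0.415 in NP and 0.868 in P (n = 4 each). Combined as the root of the summed squares, this spread was 0.96. The difference between the median fold changes, −0.73, was smaller than this spread, which is not its standard error, and it was not tested.

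**Figure D2:**
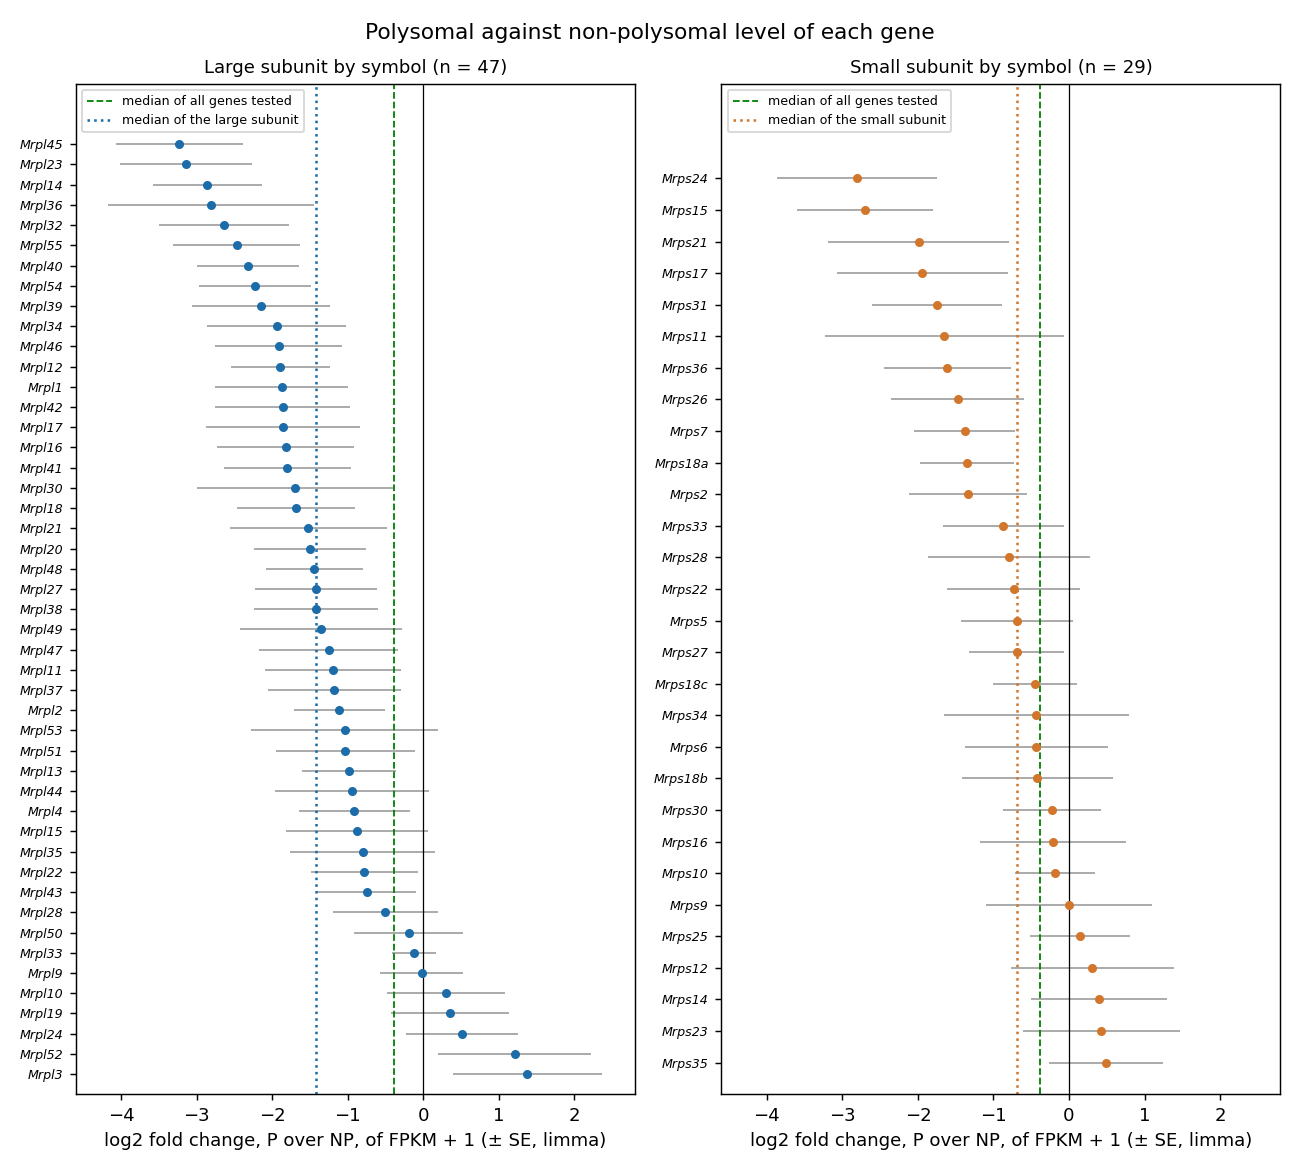
Log2 fold change (P over NP) of FPKM + 1 with its standard error from limma for each of 47 large subunit genes (left) and 29 small subunit genes (right), ordered by value. The solid line is 0, the green dashed line the median of all genes tested (−0.39), and the dotted line the median of the subunit (−1.42 and −0.69), and most points of the large subunit lie left of the green line.

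The levels by library show where the subunits parted. The median level of the large subunit was 31.0, 26.5, 14.05 and 19.1 FPKM in NP1 to NP4 and 6.64, 7.89, 5.63 and 4.60 FPKM in P1 to P4, with no overlap. The median of all genes tested did not overlap either, at 3.41 to 5.55 FPKM in NP and 1.05 to 3.02 FPKM in P. The median of the small subunit was 14.1, 24.3, 7.18 and 10.9 FPKM in NP and 12.1, 9.02, 1.74 and 5.17 FPKM in P. Here NP3 lay below P1 and P2, so the small subunit medians overlapped between the datasets. In all 4 NP libraries the large subunit had the higher median, and in P1, P2 and P4 the small subunit had it.

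The summed level overlapped between the datasets. The 76 members together held 4843, 4598, 1862 and 6893 FPKM in NP1 to NP4 and 2909, 2349, 1834 and 3261 FPKM in P1 to P4. NP3 was lower than 3 of the 4 P libraries, and it was still so without the 3 highest genes of each library, at 1266 FPKM against 1851, 1357, 801 and 1624 FPKM in P1 to P4. Large subunit genes held 69.4% to 79.2% of the sum in NP and 50.9% to 79.3% in P, where the lowest value, in P4, went with 909 FPKM of Mrps23 alone.

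**Figure D3:**
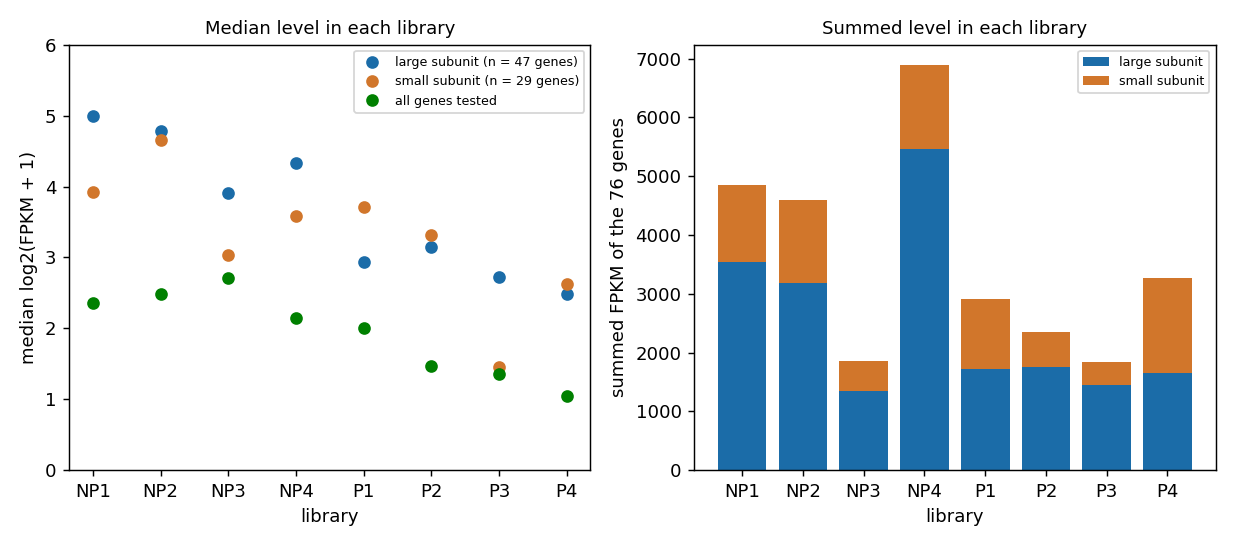
Left, median log2(FPKM + 1) of large subunit genes, small subunit genes and all genes tested in each library, where each point is 1 library. Right, summed FPKM of the 76 genes in each library, stacked by subunit. The large subunit points of NP (3.91 to 5.00) all lie above those of P (2.49 to 3.15), while the small subunit points and the bars overlap. The points of all genes tested do not overlap either (2.14 to 2.71 in NP and 1.04 to 2.01 in P).

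Symbols do not always match the place of a protein. The products of Mrps30 and Mrps18a sit in the large subunit of the mammalian mitoribosome, and that of Mrps36 belongs to the oxoglutarate dehydrogenase complex. With the first pair counted as large and Mrps36 left out, the medians were −1.35 over 49 genes and −0.69 over 26 genes. Among proteins without a bacterial counterpart, added during the evolution of the mitochondrion, the median was −1.35 over 19 large subunit genes, of which 8 (42.1%) had an unadjusted p below 0.05 (9.47% of all genes), and −0.56 over 10 small subunit genes, of which 0 had. Genes with a bacterial counterpart had medians of −1.33 (30 large, 5 of them or 16.7% below that p) and −0.74 (16 small, 2 or 12.5%). The differences between these groups were not tested.

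In 10 members all 4 NP libraries lay above all 4 P libraries (13.2%), against 5.92% of all genes. These were Mrpl12, Mrpl14, Mrpl18, Mrpl23, Mrpl32, Mrpl39, Mrpl40, Mrpl45, Mrps15 and Mrps36. The reverse order was found in 0 members, against 0.357% of all genes. Both counts depended on scaling. NP lay wholly above P in 7 members with quantile normalization (2.53% of all genes) and in 2 with libraries centred on their median (0.812%). P lay wholly above NP in 1 member under each of these scalings, where the share of all genes was not computed. When either NP3 or P1 was left out, NP lay wholly above P in 21 members. The share of all genes was then also higher, at 8.22% and 11.4%.

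Mrpl45 encodes a protein beside the exit tunnel that ties the mitoribosome to the inner membrane, and it had the most negative fold change of the family. Its level was 65.2, 21.3, 32.5 and 19.3 FPKM in NP1 to NP4 and 6.64, 0.601, 5.63 and 0.575 FPKM in P1 to P4. The lowest NP library was 2.90 times the highest P library, the widest such gap in the family. The log2 fold change was −3.23 ± 0.84 (SE, n = 4 per dataset; adjusted p = 0.376, limma). P2 and P4 held 5 and 4 counting units of this gene, against 72 to 614 in NP.

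Mrpl23, the counterpart of a bacterial protein at the mouth of the exit tunnel, had 4.76, 13.9, 29.5 and 7.85 FPKM in NP and 0.240, 2.11, 0 and 0 FPKM in P. The datasets did not overlap, and P3 and P4 were listed at 0. The log2 fold change was −3.14 ± 0.88 (SE, n = 4 per dataset; adjusted p = 0.376, limma), and 68.9% of its transcript has a near-identical copy elsewhere in the genome, so its reads could be split with that copy.

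Mrpl14 encodes a protein of the face between the subunits, to which the assembly factor Malsu1 binds. Its level was 57.1, 98.1, 38.9 and 338 FPKM in NP and 14.4, 7.89, 16.4 and 11.02 FPKM in P, with NP4 far above the other NP libraries and the P libraries close together. The mean was 133 ± 139 FPKM in NP and 12.4 ± 3.73 FPKM in P (SD, n = 4), and the log2 fold change was −2.86 ± 0.72 (SE; adjusted p = 0.376, limma). Malsu1, listed under the older symbol 2410003K15Rik, had 14.3, 17.2, 6.74 and 8.38 FPKM in NP and 4.56, 5.67, 3.07 and 0.243 FPKM in P, again without overlap.

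Mrpl40, a protein found only in mitochondrial ribosomes, was the most abundant of the 10. It had 326, 243, 82.2 and 149 FPKM in NP and 13.3, 30.3, 44.8 and 76.3 FPKM in P, so that NP3 and P4 nearly met. The log2 fold change was −2.32 ± 0.67 (SE, n = 4 per dataset; adjusted p = 0.405, limma). With 383 to 1376 counting units in NP and 76 to 248 in P, it was also the best covered of the 10 in the P dataset.

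Mrpl12 encodes the stalk protein that recruits translation factors to the mitoribosome. It had 31.1, 40.2, 35.3 and 92.0 FPKM in NP and 7.36, 10.8, 21.9 and 9.51 FPKM in P, with a log2 fold change of −1.89 ± 0.66 (SE; adjusted p = 0.416, limma). The gene for the other stalk protein, Mrpl10, to which Mrpl12 binds, did not share this pattern. It had 75.2, 106, 26.3 and 10.5 FPKM in NP and 93.9, 64.5, 20.8 and 42.6 FPKM in P, with wide overlap and a log2 fold change of 0.30 ± 0.78 (SE; adjusted p = 0.877, limma) whose sign turned without NP4 (−0.30) or without P1 (−0.01). The difference between the genes was not tested.

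Mrpl32, a protein that is cut to its mature form by a protease of the inner membrane, had 31.0, 8.02, 13.4 and 17.1 FPKM in NP and 5.54, 2.03, 0.293 and 0.972 FPKM in P. Mrpl39, a mitochondrion-specific protein, had 28.7, 7.90, 8.73 and 4.11 FPKM in NP and 2.44, 3.45, 1.24 and 0 FPKM in P. Mrpl18, which lies in the central protuberance, had 13.2, 16.0, 8.55 and 8.57 FPKM in NP and 5.33, 1.78, 2.74 and 2.14 FPKM in P. In Mrpl39 the highest P and lowest NP value were close, at a ratio of 1.19, while Mrpl18 had tighter NP values. Their log2 fold changes were −2.64, −2.15 and −1.68 with adjusted p of 0.405, 0.470 and 0.501 (limma).

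Mrps genes were 2 of the 10 (6.90% of Mrps genes, against 17.02% of Mrpl genes and 5.92% of all genes), and the difference was not tested. Mrps15, the counterpart of a bacterial protein that binds early to the rRNA of the small subunit, had 16.1, 10.9, 5.52 and 7.08 FPKM in NP, 5.03 FPKM in P1 and 0 in P2, P3 and P4, so that its whole P level came from 40 counting units in P1. Mrps36 had 5.66, 11.5, 2.37 and 10.6 FPKM in NP and 2.17, 0.735, 1.06 and 2.34 FPKM in P, where NP3 and P4 almost touched. A near-identical copy of 89.9% of the Mrps36 transcript lies elsewhere in the genome, and its product is not a part of the mitoribosome. Their log2 fold changes were −2.70 ± 0.90 and −1.61 ± 0.84 (SE, n = 4 per dataset; adjusted p = 0.412 and 0.533, limma).

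**Figure D4:**
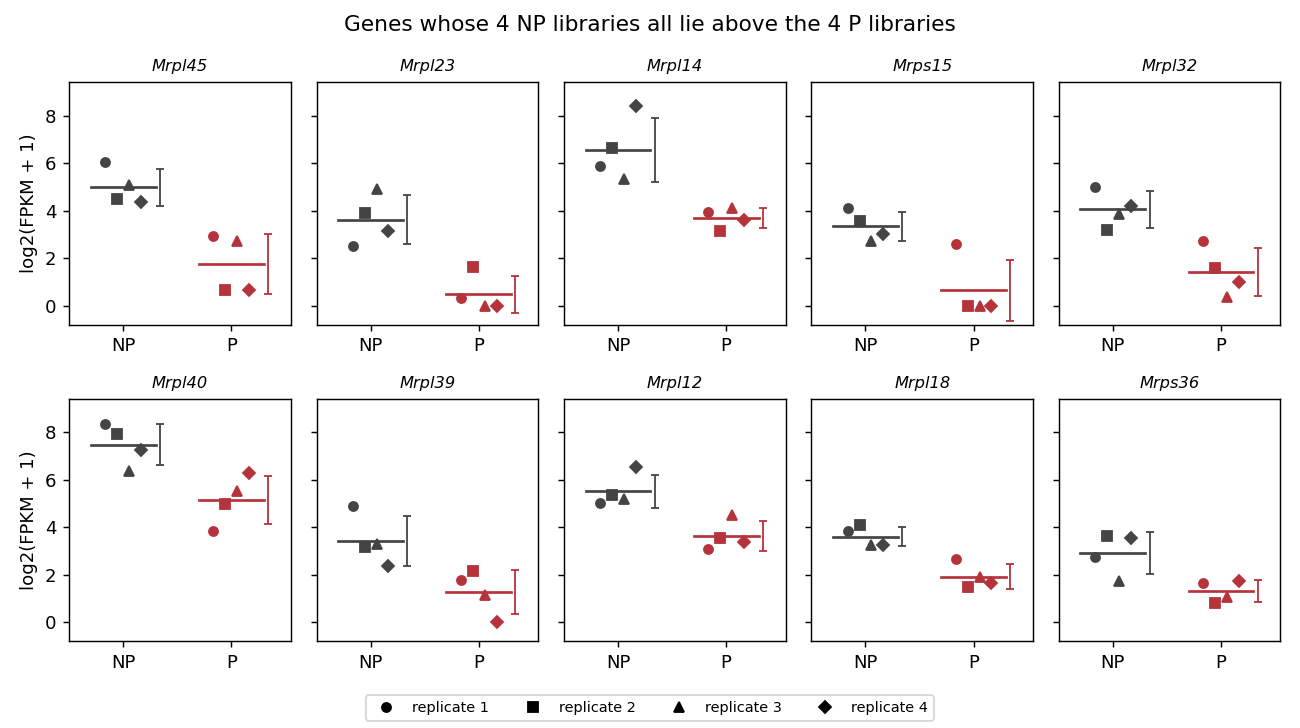
Level of 10 genes in each library as log2(FPKM + 1), NP in grey and P in red, with marker shapes for replicates 1 to 4, a horizontal bar for the mean and a vertical bar for ± 1 SD (n = 4). In each panel the lowest grey marker lies above the highest red one, by a ratio of FPKM from 1.01 (Mrps36) to 2.90 (Mrpl45).

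Mrpl36, a small protein with a bacterial counterpart, and Mrps24 were as far below 0, but their libraries overlapped. Mrpl36 had 3.83, 196, 20.2 and 0.146 FPKM in NP and 4.50, 0, 0.751 and 0 FPKM in P, and NP2 alone held 89.0% of its summed NP level. Mrps24, the counterpart of a bacterial protein at the mRNA entry of the small subunit, had 14.1, 61.9, 19.02 and 39.1 FPKM in NP and 17.9, 0, 0.153 and 13.5 FPKM in P, with P1 above NP1. Both had a log2 fold change of −2.81, with standard errors of 1.36 and 1.06 and adjusted p of 0.513 and 0.421 (limma).

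The most abundant mRNAs of the family were in both datasets. A mean above 50 FPKM in NP was found for 21 of 76 members, against 2089 of 14292 genes tested. In P it was found for 12 members, against 1847 of 14292 genes, and of these 12 members 8 were Mrpl and 4 Mrps genes. Mrpl2, whose product lies near the peptidyl transferase centre, was the highest of all with 1124, 499, 391 and 979 FPKM in NP and 180.2, 247, 726 and 300.0 FPKM in P. P3 was above NP2 and NP3, and the log2 fold change was −1.11 ± 0.60 (SE; adjusted p = 0.535, limma).

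Mrpl53, a mitochondrion-specific protein, had 169, 245, 35.9 and 2500.2 FPKM in NP and 61.1, 556, 14.997 and 387 FPKM in P. NP4 held 84.7% of the NP sum, and without it the log2 fold change turned from −1.04 to 0.07. Another gene, Gm42688, shares 88.0% of its exon bases, so reads of the 2 genes cannot be told apart here. Mrpl54, also mitochondrion-specific, had 210.4, 215, 106 and 231 FPKM in NP and 108, 53.3, 45.0 and 7.69 FPKM in P, and only P1 reached the lowest NP library (log2 fold change −2.23 ± 0.74 SE; adjusted p = 0.407, limma).

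Mrps30 had all its P values within the range of its NP values. It had 452, 329, 53.5 and 213 FPKM in NP and 175, 163, 166 and 198 FPKM in P, and its mean was 262 ± 170.0 FPKM in NP and 175 ± 16.2 FPKM in P (SD, n = 4). Its 4 P values were the closest together in the family, with a coefficient of variation of 9.23%. The log2 fold change was −0.22 ± 0.65 (SE; adjusted p = 0.894, limma), and it was −0.85 without NP3 and 0.17 without NP1.

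Mrps17, Mrps21 and Mrps7, also abundant, varied widely in P. Mrps17 had 152, 235, 99.6 and 157 FPKM in NP and 295, 19.3, 1.83 and 156 FPKM in P, so that P1 was above and P3 far below every NP library. Mrps21 had 78.7, 145, 22.9 and 542 FPKM in NP and 215, 1.46, 52.1 and 20.7 FPKM in P, and 89.8% of its transcript has a near-identical copy elsewhere in the genome. Mrps7, the counterpart of a bacterial protein that starts the assembly of the small subunit head, had 68.9, 103, 34.5 and 95.8 FPKM in NP and 63.8, 10.99, 23.2 and 27.9 FPKM in P. Each overlapped between the datasets, with adjusted p of 0.564, 0.575 and 0.517 (limma).

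A positive fold change was found in 11 members, and in none of them were all P libraries above all NP libraries. Mrpl3, a core protein of the large subunit with a bacterial counterpart, had the highest, with 62.1, 68.4, 38.4 and 2.03 FPKM in NP and 66.7, 189, 94.6 and 18.5 FPKM in P. All NP libraries but NP4 lay within the range of P (log2 fold change 1.38 ± 0.99 SE; adjusted p = 0.640, limma), and without NP4 the log2 fold change was 0.33. Mrpl52, a mitochondrion-specific protein, had 1.52, 5.60, 0 and 1.60 FPKM in NP and 2.58, 2.27, 2.18 and 32.6 FPKM in P, the last from 36 counting units. Its log2 fold change was 1.21 ± 1.01 (SE; adjusted p = 0.660, limma), and 0.38 without P4.

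Mrpl24, whose product lies near the exit tunnel, had 226, 215, 51.8 and 157 FPKM in NP and 548, 62.0, 141 and 341 FPKM in P, and shares 26.3% of its exon bases with Rrnad1. Mrps23 had 35.5, 25.2, 60.9 and 115 FPKM in NP and 53.7, 22.2, 18.3 and 909 FPKM in P, so that P4 held 90.6% of its P sum. Without P4 the log2 fold change of Mrps23 turned from 0.43 to −0.82. Mrps35, a mitochondrion-specific protein, had 25.8, 32.2, 12.4 and 4.92 FPKM in NP and 12.6, 45.7, 16.4 and 24.1 FPKM in P, with a log2 fold change of 0.49 ± 0.75 (SE; adjusted p = 0.787, limma). The libraries of each of these genes overlapped.

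**Figure D5:**
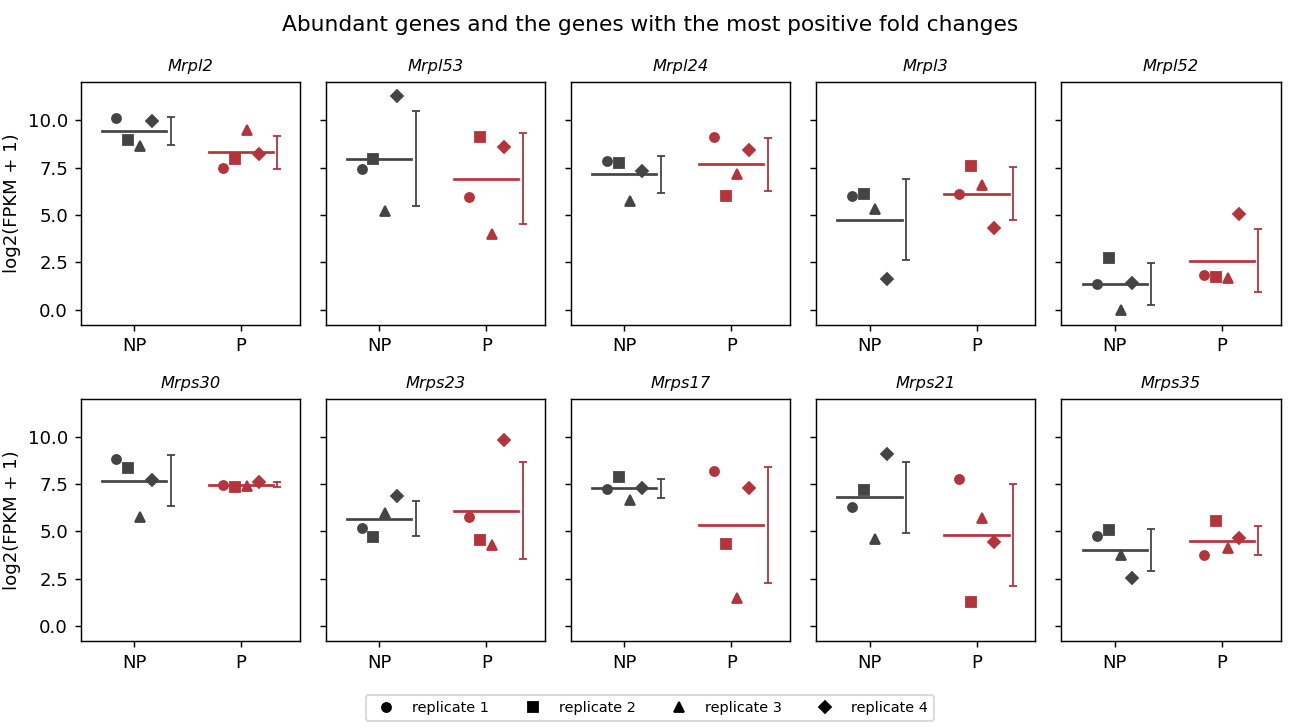
Level of 10 genes in each library as log2(FPKM + 1), with symbols as in the plot of non-overlapping genes. The genes are among the most abundant of the family or have its most positive fold changes, NP and P markers overlap in every panel, and single libraries stand far apart for Mrpl53 (NP4), Mrps23 (P4) and Mrpl52 (P4).

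The 3 paralogs of bacterial S18 could be compared within the family. Mrps18a, of the large subunit, had 48.1, 39.6, 25.6 and 62.0 FPKM in NP and 12.1, 14.8, 13.1 and 26.2 FPKM in P, where only P4 was just above NP3 (log2 fold change −1.35 ± 0.62 SE; adjusted p = 0.496, limma). Mrps18b had 17.7, 23.2, 4.21 and 10.1 FPKM in NP and 69.8, 7.02, 4.09 and 1.79 FPKM in P, with 65.3% of its transcript in a near-identical copy elsewhere. Mrps18c was low throughout, at 2.04, 1.43, 1.53 and 0.612 FPKM in NP and 0.989, 0.580, 0 and 1.74 FPKM in P, from at most 12 counting units a library. The log2 fold changes of Mrps18b (−0.42) and Mrps18c (−0.45) turned positive under quantile normalization and under centring, and the differences between the paralogs were not tested.

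The spread between replicates is given beside counting error, which takes no account of amplification. The coefficient of variation over 4 libraries had a median of 64.6% in NP and 94.7% in P, against 10.2% and 13.6% from counting alone, and it was above its counting value in 74 and 76 of 76 members. In 14 members more than 75% of the summed P level came from 1 library, and in 6 members the same was true of NP. NP3 was the lowest NP library for 35 members and P3 the lowest P library for 30. Members listed at 0 numbered 0 to 2 in the NP libraries and 1, 6, 14 and 12 in P1 to P4, while 52 members were above 0 in all 8 libraries.

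The lowest members were near the limit of the data. Mrpl33 (mean of 0.305 FPKM over all libraries) and Mrps10 (0.773 FPKM) were the only members below 1 FPKM, and 64 members had a mean above 1 FPKM in both datasets. Exon bases were shared with another gene by 30 members, for more than 10% of their length in 18 and more than 50% in Mrpl53, Mrps34 and Mrps25. Mrpl46 and Mrps11 overlap each other. The sources used here do not state whether counting used strand, so the reads of such genes cannot be told apart.

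The remaining proteins of the mitoribosome, which lack an Mrp symbol of this form, were described in the same way. All 7 (Dap3, Aurkaip1, Ptcd3, Gadd45gip1, Ict1, Chchd1 and Mrp63) had a negative log2 fold change, where 71.4% of all genes do, with a median of −0.71. Dap3 (−0.15) and Mrp63 (−0.09) lay above the median of all genes (−0.39), and the mean FPKM of Mrp63 was higher in P. At an unadjusted p below 0.05, 2 of the 7 (Aurkaip1 and Chchd1) were lower in P (28.6%, against 9.47% of all genes), and 0 passed an adjusted p of 0.1 by limma on FPKM or by voom on counting units. Aurkaip1, a small subunit protein, had 110.3, 63.6, 13.9 and 247 FPKM in NP and 9.28, 6.01, 9.55 and 8.67 FPKM in P, without overlap (log2 fold change −2.96 ± 0.81 SE; adjusted p = 0.376, limma). Dap3, the GTP-binding protein of the small subunit, had 177, 252, 71.8 and 37.5 FPKM in NP and 109, 73.4, 46.9 and 208 FPKM in P, with wide overlap.

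Factors that build the mitoribosome or modify its rRNA had a median log2 fold change of −0.82 over the 23 of 26 that were tested, and Ftsj2, Rnmtl1 and Trmt61b were listed at 0 in every library. Of these, 3 had an unadjusted p below 0.05 with a lower level in P (13.04%, against 9.47% of all genes), and 0 passed an adjusted p of 0.1 by limma or voom. Malsu1 and Wbscr16 had no overlap (8.70%, against 5.92% of all genes), with Wbscr16 at 4.47, 2.41, 0.765 and 2.66 FPKM in NP and 0, 0.217, 0 and 0 FPKM in P. Tfb1m, the dimethylase of the small subunit rRNA, had 82.9, 125, 60.6 and 296 FPKM in NP and 80.5, 3.06, 19.5 and 11.5 FPKM in P.

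The translation factors that work with the mitoribosome had a median log2 fold change near that of all genes. It was −0.43 over 17 genes, with 11 below 0 (71.4% of all genes), 3 at an unadjusted p below 0.05 (Tufm, Mrrf and Taco1, all lower in P; 17.6%, against 9.47% of all genes) and 0 past an adjusted p of 0.1 by limma or voom. Tufm, the elongation factor that brings tRNA to the mitoribosome, had 72.3, 78.9, 69.7 and 82.7 FPKM in NP and 11.3, 43.2, 14.4 and 47.3 FPKM in P, with no overlap and NP values that lay close together (log2 fold change −1.61 ± 0.63 SE; adjusted p = 0.443, limma). Taco1, an activator of the translation of a cytochrome oxidase subunit, had 7.93, 6.12, 4.77 and 6.85 FPKM in NP and 3.23, 1.80, 0 and 0 FPKM in P, also without overlap.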

How the data were processed

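Per the labels and the methods of the study, reads were trimmed with Trim Galore 0.4.1, checked with FastQC 0.11.5 and mapped to GRCm38 with HISAT2 2.0.5, and the authors deposited FPKM values per gene and library. The sources used here name no gene annotation. Libraries were grouped by title. The members and gene lists were chosen with earlier results of these data known.

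FPKM was taken to log2(FPKM + 1) for the 14292 genes with a mean above 0.1 FPKM in at least 1 dataset, and P was compared with NP by limma 3.58.1 in R 4.3.3 (a linear model with a mean-variance trend, two-sided), with Benjamini-Hochberg adjustment over all genes and a threshold of 0.1. The script was tested on simulated data. The low values were whole multiples of 1 read, which gave counting units for 84.2% of 15585 genes with a value and for all 76 members. Of the values, 94% were whole within 0.01. A gene length was accepted only if all values of the gene became whole, so this share is no separate check. Counting units may be reads or fragments. Gene lengths that fitted no annotation (38 members) were searched, so a count can be a lower bound. The median depth per member was 18.5 to 172 counting units a library.

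Named genes were those without overlap between datasets, the 5 highest of each subunit, the 5 most positive and 5 most negative fold changes, the S18 paralogs, the stalk genes, Mrps30, Mrps36, Mrpl14 and Mrpl45. Mrpl9, Mrpl17, Mrpl19, Mrpl30, Mrpl33, Mrpl44, Mrpl46, Mrps10, Mrps11, Mrps25 and Mrps34 were named after their values were seen. Promoter windows came from RefSeq (GRCm38.p6) and transcripts from GENCODE, where the longest coding transcript was used. Copies were matches of at least 97% identity by megablast. Alternatives were another pseudocount, other filters, quantile normalization, centring, a replicate block, leaving out each library, voom on counting units, subunits by assembled particle and the ratio of means.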

Additional observations from a re-analysis of the deposited data

Results flagged for a closer look

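Of 70 groups of 4 library values (28 named genes and 7 family summaries in each dataset), 3 held a value that stood apart from the others by the 95% critical value of Dixon's ratio on the log2(FPKM + 1) scale, where chance gives about 1 in 20. Mrpl54 was lowest in NP3, at 106 FPKM, with a gap of 0.881 of the range to the next NP library. Mrps15 was highest in P1, at 5.03 FPKM, with the whole range between it and the other P libraries, which were listed at 0. Mrpl52 was highest in P4, at 32.6 FPKM, with a gap of 0.950 of the range.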

How the results depend on the processing

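No member passed an adjusted p of 0.1 under any alternative on FPKM, and 1 (Mrpl23, log2 fold change −5.50, adjusted p = 0.0803, limma) did with voom on counting units. The number of members with NP wholly above P was 2 with libraries centred on their median and 11 to 21 when 1 library was left out. It was 21 both without NP3 and without P1, while 7.90% to 11.4% of all genes had this order when 1 library was left out. The reverse order was found in 1 member with quantile normalization, with centring and without NP2. The distance of the members from the median of all genes stayed negative (−0.48 to −1.12), as did that between the subunits (−0.33 to −0.96). Each moved by less than the SD between libraries, combined over both datasets (0.71 and 0.96). Among 420 alternative values of the 28 named genes with a test, 407 kept direction and side of the threshold, 12 reversed and 1 passed the threshold, and of 28 ratios of means, which have no test, 27 kept direction. Reversals were Mrps18c at 0.32 (quantile) and 0.51 (centred), Mrps18b at 0.34 (quantile), 0.53 (centred) and 0.58 (ratio of means), and Mrps30 at 0.74 (centred). Leaving out 1 library gave −1.39 to 0.16 for Mrps18b (positive without P4), −0.85 to 0.17 for Mrps30 (positive without NP1 and, at 0.01, without NP2), −0.30 to 0.78 for Mrpl10 (negative without NP4 and, at −0.01, without P1), −1.96 to 0.07 for Mrpl53 (positive without NP4) and −0.82 to 1.04 for Mrps23 (negative without P4). Apart from the settings that leave out libraries, the cause was not tested.

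With the replicate number as a block, 0 members and 1 of all genes were called, and 21 members had an unadjusted p below 0.05 in place of 15. The share of all genes at that p with the block was not computed. Libraries of the same number deviated together with correlations of 0.139, 0.0518, 0.251 and 0.155 over genes, and others with −0.135 to 0.136, so the pairing is not established, and NP2 correlated best with P1. Number by number, the median and the summed FPKM of the family and the median of each subunit were higher in NP in all 4. So was the median of all genes tested, at 4.14, 4.62, 5.55 and 3.41 FPKM in NP1 to NP4 and 3.02, 1.77, 1.57 and 1.05 FPKM in P1 to P4. The log2 distance of the median member above the median gene was not higher in NP for number 4 (1.56 in NP4 and 1.57 in P4), but it was for the other numbers. Over all genes the count of calls was 0 to 5 on FPKM and 131 with voom. Depth limits the low genes, since 6 members in NP and 17 in P had a median below 10 counting units.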
